A study of Homo sapiens with 36 samples.

Results

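The deposited island lists compared here are those of the macroH2A1.2 chromatin immunoprecipitations of K562 cells that were either left untreated or given aphidicolin. They were chosen by their labels (line K562, the macroH2A1.2 antibody Millipore MABE61, and titles of 1 set), and they are 4 of the 22 island lists that were provided, in a series of 36 samples. Each treatment had 2 libraries, numbered 1 and 3 in the titles. K562 is an established human line from a chronic myeloid leukaemia, and no other genetic change or agent is named for these samples. The dose and the duration of aphidicolin are not given in the labels used here, nor do they say whether the libraries came from separate cultures, so every p-value below measures the spread between these libraries. The study profiled macroH2A1.2, macroH2A1 and the DNA damage mark γH2AX with and without replication stress; 14 input libraries were not analysed here.

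MacroH2A is a variant of histone H2A that carries a large globular macro domain on its C-terminal side, and macroH2A1.2 is a splice isoform from the macroH2A1 gene. The variant is known from broad chromatin domains, among them those of the inactive X chromosome and of silenced developmental genes. Aphidicolin inhibits the replicative DNA polymerases, which slows replication forks and gives replication stress. SICER, which made the lists, joins enriched windows on a fixed grid into islands and was built for such broad signals. Here the window was 200 bp and the largest gap bridged inside an island was 600 bp, at a false discovery rate of 0.01.

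An island is given by its position in hg19 and by the number of reads in it. The lists held 33791 islands in untreated replicate 1, 31923 in untreated replicate 3, 45244 in aphidicolin replicate 1 and 32482 in aphidicolin replicate 3, on chromosomes 1 to 22 and X. Reads in islands numbered 11708588, 9641246, 12524522 and 10232825 in that order, and the total sequencing depth is unknown. No pair of lists shared more than 7 islands with the same edges and the same read count, so none repeated another. As a check of the antibody, a list from cells with a control hairpin (sh-RFP) covered on average 32.2% of the 100-kb windows tested below and one from cells with a macroH2A1.2 hairpin (sh-mH1.2) 1.28%, with 1 library each and no test.

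Islands covered more of the genome in both aphidicolin libraries than in both untreated ones, but width, number and fragmentation did not separate the treatments. Covered length was 286 Mb and 242 Mb in untreated replicates 1 and 3, and 318 Mb and 307 Mb in aphidicolin replicates 1 and 3. The log2 ratio of the mean covered lengths was 0.25, and an exact two-sided permutation test gave p = 0.333, the smallest p that 2 libraries against 2 allow. Island number averaged 32857 ± 1321 (SD, n = 2) in untreated and 38863 ± 9024 (SD, n = 2) in aphidicolin libraries. That excess came from aphidicolin replicate 1, since aphidicolin replicate 3 lay between the untreated lists.

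The 2 aphidicolin lists reached a similar covered length with islands of different size. Median island width was 5.6 kb and 4.8 kb in untreated replicates 1 and 3. It was 4.6 kb in aphidicolin replicate 1 and 6.4 kb in aphidicolin replicate 3, the lowest and the highest of the 4 lists. Islands under 5 kb made up 54.6% of the islands of aphidicolin replicate 1 and 29.5% of those of aphidicolin replicate 3, against 42.3% and 50.3% in untreated replicates 1 and 3. The length-weighted median, the width above which lie the islands that hold 50% of the covered length, averaged 10.4 ± 0.849 kb (SD, n = 2) in untreated and 10.2 ± 1.70 kb (SD, n = 2) in aphidicolin libraries. Islands of 20 kb or more held 29.6% and 27.1% of the covered length in untreated replicates 1 and 3, and 25.1% and 29.6% in aphidicolin replicates 1 and 3. For median width, length-weighted width and the share in islands of 20 kb or more, the exact permutation test gave p = 1 (two-sided), and in each of these measures aphidicolin replicate 1 was the lowest and aphidicolin replicate 3 the highest of the 4, in the last by less than the digits printed.

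**Figure D1:**
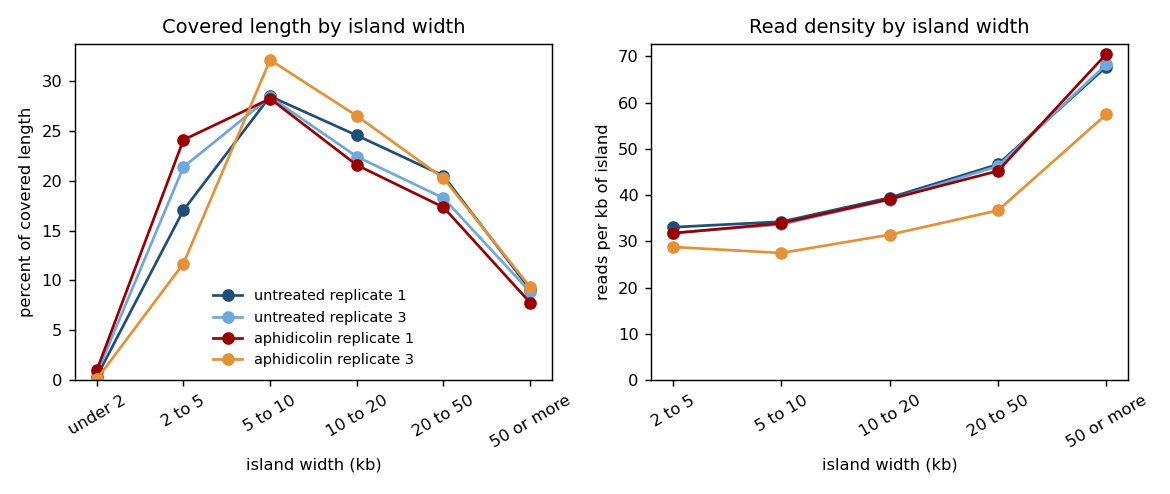
Share of covered length (left, percent) and reads per kb of island (right) by island width in kb, 1 line per library. Aphidicolin replicate 3 had the smallest share in islands of 2 to 5 kb, 11.7%, and the fewest reads per kb in each width class drawn.

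From 2 kb upward, read density was higher in each wider class in 3 of the lists, from 33.1 reads per kb in islands of 2 to 5 kb to 67.8 in islands of 50 kb or more in untreated replicate 1. The corresponding values were 31.8 and 68.3 in untreated replicate 3 and 31.8 and 70.5 in aphidicolin replicate 1. In aphidicolin replicate 3 density was 28.8 reads per kb at 2 to 5 kb, 27.5 at 5 to 10 kb and 57.5 at 50 kb or more. Over all islands it was 41.0, 39.9, 39.4 and 33.4 reads per kb in untreated replicates 1 and 3 and aphidicolin replicates 1 and 3. The log2 ratio of aphidicolin over untreated was -0.16 (exact two-sided permutation p = 0.333). Without aphidicolin replicate 3 the ratio was -0.04, so most of it rested on that library.

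Splitting and merging of islands varied as widely between libraries of 1 treatment as between treatments. For each pair of lists, islands that overlapped were grouped and each group was counted as 1 island to 1, 1 to several (a split in the second list), several to 1 (a merge) or several to several. From untreated replicate 1 to aphidicolin replicate 1 there were 2832 splits and 1755 merges. From untreated replicate 1 to aphidicolin replicate 3 there were 1671 splits and 2197 merges. Untreated replicate 3 gave 2228 splits and 2149 merges against aphidicolin replicate 1, and 1301 splits and 2494 merges against aphidicolin replicate 3. The replicates themselves differed as much, with 2692 splits and 1613 merges from untreated replicate 1 to 3 and 1461 splits and 3621 merges from aphidicolin replicate 1 to 3. Splits thus prevailed in some pairs of an untreated with an aphidicolin library and merges in others. The mean log2 ratio of splits to merges over the 4 pairs between treatments was -0.15, with an exact two-sided permutation p of 1.

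**Figure D2:**
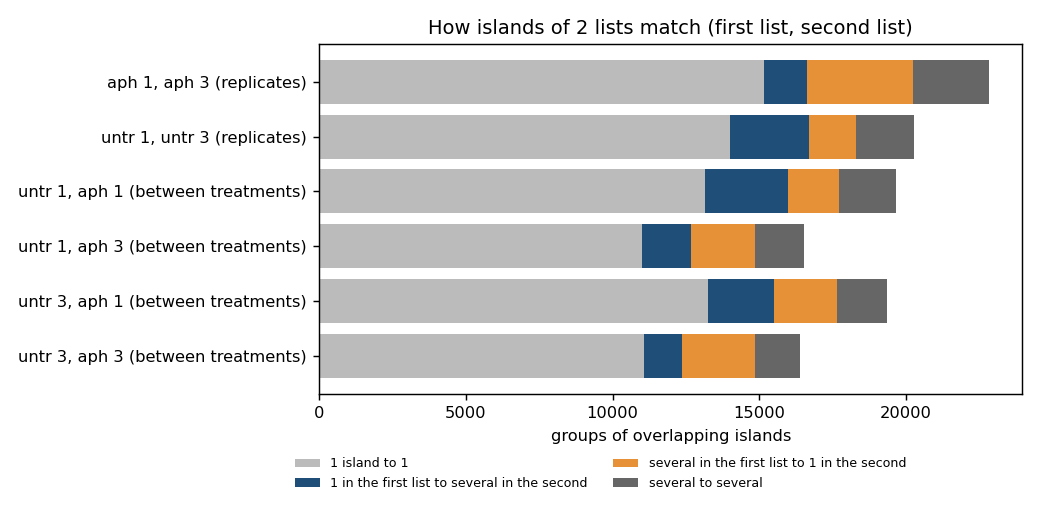
Number of groups of overlapping islands in each pair of lists, by how many islands of the first list meet how many of the second. Groups of 1 island to 1 numbered 14002 and 15175 between replicates and 10994 to 13261 between treatments.

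Islands that matched 1 to 1 showed no consistent shift in width between treatments, though only 3.18 to 3.63% of them had equal widths. Between replicates that share was 4.31 to 4.75%. The median log2 width ratio of islands matched 1 to 1, aphidicolin over untreated, was -0.07, 0.08, 0.06 and 0.26 in the 4 pairs. Its mean was 0.08 (exact two-sided permutation p = 0.667). The replicate pairs gave -0.16 and 0.13, from replicate 1 to replicate 3. The edges of such islands lay a median of 1.0 to 1.4 kb apart between treatments and 1.0 kb apart between replicates. Edges within 400 bp of each other made up 28.1 to 30.9% of the edges between treatments and 33.6 to 34.8% of those between replicates.

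Some stretches were whole in both lists of one treatment and broken in both lists of the other. Whole islands were matched between the lists of a treatment by a reciprocal overlap of at least 80%. In each list of the other treatment they lay over several islands, with at most 80% of their length covered. How many matched islands could have qualified, and how many such stretches differed between replicates, was not counted. In 116 of them the untreated lists had 1 island and both aphidicolin lists had several. In 154 the reverse held. The widest of the first kind, chr3:182436201-182508800, was spanned by single islands of 71.2 kb and 68.0 kb in untreated replicates 1 and 3. Aphidicolin replicate 1 had 5 islands there over 66.4% of the stretch, and aphidicolin replicate 3 had 2 over 53.7%. On chromosome 19, chr19:3285801-3357600 was likewise whole in the untreated lists, and held 4 and 3 islands over 71.0% and 63.8% of its length in aphidicolin replicates 1 and 3. The widest of the second kind was chr5:169549001-169641800, with single islands of 86.8 kb and 81.0 kb in the aphidicolin lists. Untreated replicate 1 had 8 islands over 78.4% of it and untreated replicate 3 had 5 over 71.6%. In these 3 stretches the broken lists still covered most of the length.

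To locate the changes, the percent of each 100-kb window covered by islands was compared with limma. Of 30367 windows, 12335 had islands in at least 2 of the 4 lists and were tested, and 22.0% of them passed a Benjamini-Hochberg adjusted p of 0.05. Coverage rose in 15.2% of the tested windows and fell in 6.73%. In the windows that rose, the medians were 12.8% and 12.2% in untreated replicates 1 and 3 and 45.8% in both aphidicolin libraries. In those that fell, they were 43.4% and 39.1% untreated and 14.6% and 12.5% under aphidicolin. Without regard to the test, both aphidicolin libraries lay above both untreated ones in 41.4% of the tested windows and below both in 29.0%. Most windows past the threshold had islands in both treatments. Of those that rose, 199 (10.6%) had no island in either untreated list, against 8.06% of the windows that did not pass. Of those that fell, 103 (12.4%) had none in either aphidicolin list, against 5.54% of the windows that did not pass. Where the lists were trimmed to the same covered length, 854 windows rose and 1176 fell, so the balance of rises and falls reversed. Without untreated replicate 3, 770 windows rose and 482 fell. Without untreated replicate 1, aphidicolin replicate 1 or aphidicolin replicate 3 no window passed with limma, while 2609, 2224 and 2254 rose and 983, 1106 and 885 fell at an unadjusted p of 0.05.

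Of the windows that rose, 66.5% adjoined another that rose, and of those that fell, 41.2% adjoined another that fell. Among adjoining pairs of windows past the threshold, 1061 had the same direction and 30 had opposite directions. Islands can cross window borders, and the same counts were not made for adjoining windows in general. Whether neighbours changed together more than that was therefore not tested. The windows that rose formed 1025 runs, of which 629 were single windows and 205 were 3 or more windows long. Those that fell formed 623 runs, 488 of them single windows and 43 of 3 or more windows. Of windows with a mean coverage of 40 to 60% over the 4 lists, 29.3% rose and 12.5% fell, against 0.393% and 0.286% of those under 5%, where a window of low mean coverage leaves little room for a difference.

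The longest run that rose spanned 12 windows at chr7:131300001-132500000. Islands covered 29.6% and 27.3% of it in untreated replicates 1 and 3 and 78.8% and 78.7% in aphidicolin replicates 1 and 3. The second, chr1:30000001-31100000, went from 26.0% and 25.6% to 70.3% and 67.2% in the same order. At chr6:40000001-41000000 coverage was 22.3% and 24.1% untreated and 73.9% and 70.3% under aphidicolin. In each of these runs both aphidicolin libraries lay more than 40 percentage points above both untreated ones. Runs of 9 and 10 windows rose as well, at chr1:37000001-37900000 and chr7:154400001-155400000. The sh-RFP list, from untreated cells of another title set, covered 30.4%, 75.6%, 59.6%, 56.6% and 37.0% of these 5 runs in the order named. In all windows that rose it covered 38.0% on average, against 18.8% and 18.2% in untreated replicates 1 and 3. Over all tested windows the averages were 32.2%, 23.0% and 19.6% in that order. Untreated lists of different title sets thus differed at these runs. The largest limma adjusted p of any window in these 5 runs was 0.0491, which lies under 0.05 because runs were built from windows past that threshold.

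Runs that fell were fewer, and some were almost emptied. The longest, chr19:2300001-3400000, had 55.2% and 54.4% coverage in untreated replicates 1 and 3 and 35.5% and 32.7% in aphidicolin replicates 1 and 3. At chr6:15700001-16300000 coverage was 75.5% and 63.2% untreated, and 12.4% and 8.83% under aphidicolin. The 4 windows of chr6:139700001-140100000 had 88.6% and 74.1% untreated and 10.2% and 6.90% under aphidicolin. At chr1:234700001-235200000 the untreated libraries had 85.2% and 78.0% and the aphidicolin libraries 36.3% and 32.9%. The run at chr3:13000001-13700000 kept a larger part, 36.0% and 35.5% against 59.5% and 59.1% untreated. The largest limma adjusted p in these 5 runs was 0.0476, again under 0.05 by the choice of windows. Of the 10 runs named, 3 had every window past the threshold without untreated replicate 3 and none had without any of the other 3 libraries, while each kept its direction. With a replicate block none of the 10 had every window past the threshold either.

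**Figure D3:**
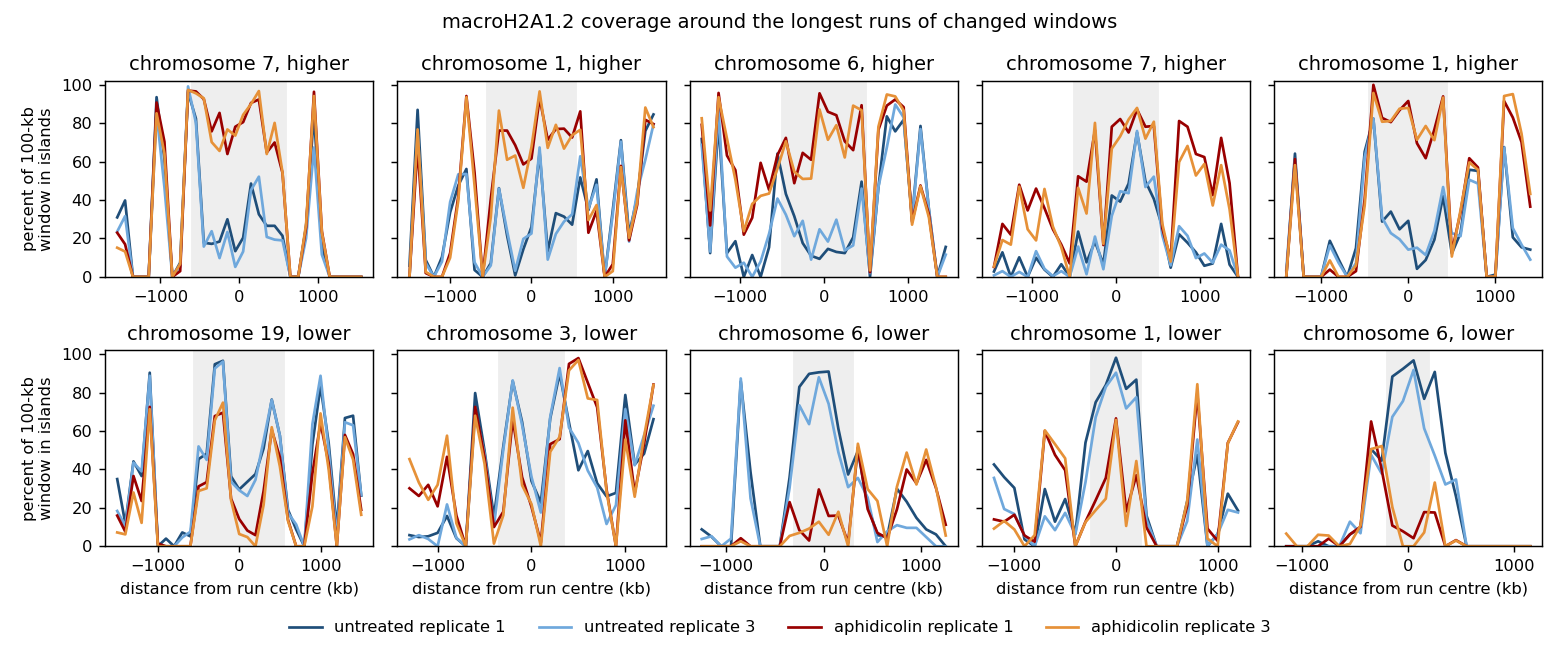
Percent of each 100-kb window covered by macroH2A1.2 islands against distance in kb from the centre of the 5 longest runs that rose (top) and the 5 that fell (bottom), 1 line per library, with the run shaded. Runs were built from windows past the threshold with both aphidicolin libraries on 1 side of both untreated ones. The lines therefore lie apart inside the shading by choice. The flanks vary: some coincide, and others differ between the treatments too. Beside the second run of chromosome 7 and beside the run of chromosome 3, coverage was higher under aphidicolin.

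Islands of the 4 lists that overlapped or touched were joined into domains to ask whether reads changed through length or through density. Of 41897 domains, 11694 (27.9%) had an island in each list and are called shared. They spanned 291 Mb, with a median of 16.2 kb. Domains found in both aphidicolin lists and in no untreated one numbered 4917, with a median of 7.2 kb, and those found in both untreated lists alone numbered 2747, with a median of 6.4 kb. Unshared domains were also thinner. In untreated replicate 1 density was 43.3 reads per kb in shared domains and 34.9 in those of the untreated lists alone. In aphidicolin replicate 1 it was 42.3 in shared domains and 34.9 in those of the aphidicolin lists alone. Domains present in a single list numbered 15017 and had a median of 3.8 kb.

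Reads in the shared domains, scaled to their sum in each library with edgeR's TMM factors, were tested next. This scaling centres the shared domains, so the balance of rises and falls among them is largely set by it. With edgeR's quasi-likelihood test and a Benjamini-Hochberg adjusted p of 0.05, 1553 domains rose (13.3% of those tested) and 1600 fell (13.7%). Among domains in at least 2 of the 4 lists, 5892 rose and 3841 fell. That set takes in the 4917 domains of both aphidicolin lists alone and the 2747 of both untreated lists alone. These hold no reads in the other treatment because no island was called there, so their direction was fixed by the choice. Without aphidicolin replicate 1 the counts were 491 and 747, without aphidicolin replicate 3 they were 443 and 563, and without untreated replicate 1 or 3 they were 1463 and 1445, and 1745 and 1280. By domain width, 3.22% rose and 4.42% fell at 5 to 10 kb, 21.5% and 22.1% at 20 to 50 kb, and 23.2% and 22.5% at 50 to 100 kb. At 100 kb or more 19.8% rose and 10.6% fell. Broad domains also hold more reads, and the part of this in these shares was not tested.

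Domains with more reads under aphidicolin were longer, with median densities that overlapped between treatments in reads scaled to a common library size. Their median island length was 8.0 kb and 7.0 kb in untreated replicates 1 and 3 and 20.8 kb and 21.4 kb in aphidicolin replicates 1 and 3. The median log2 ratio was 1.30 for reads and 1.32 for length, and both aphidicolin libraries were longer in 1550 of the 1553, against 34.2% of all shared domains. Reads are the product of length and density, so both measures follow in part from choosing domains by their reads. For rises and falls alike, they describe how the reads differed and are no second result. Density, in CPM per kb of island (CPM being reads scaled to a common library size), had medians of 3.35 and 3.95 untreated and 3.70 and 3.62 under aphidicolin, which overlapped.

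Domains with fewer reads under aphidicolin had less island length, and fewer reads on each kb of it. Their median island length was 23.0 kb and 20.4 kb in untreated replicates 1 and 3 and 11.6 kb and 10.8 kb in aphidicolin replicates 1 and 3. Both aphidicolin libraries were shorter in 1554 of the 1600, against 25.2% of all shared domains. Median density was 4.48 and 4.91 CPM per kb untreated and 3.87 and 3.78 under aphidicolin, without overlap. The median log2 ratio was -1.14 for reads, -0.82 for length and -0.31 for density.

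The size of a density ratio, and how far it separates the treatments, depends on the scale. In CPM per kb both aphidicolin libraries were denser in 17.1% of the domains that rose, against 7.71% of all shared domains. Relative to the mean of each list the shares were 66.4% and 38.7%. Where reads fell, both were thinner in 79.4% against 36.5% in CPM per kb, and in 55.7% against 17.5% relative to the list mean. In CPM per kb the median log2 density ratio was 0.02 in domains that rose, -0.31 in those that fell and -0.09 over all shared domains. Where reads per kb were divided by the mean of each list it was 0.18, -0.15 and 0.07, so that only the median over all shared domains changed sign. On either scale the median lay 0.11 above that of all shared domains where reads rose, and 0.22 below it where reads fell.

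**Figure D4:**
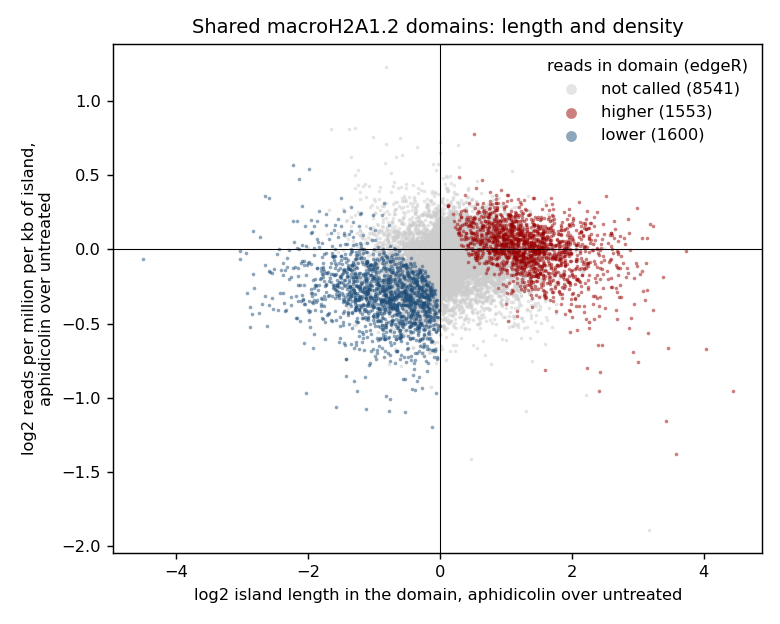
Each point is a shared domain, with the log2 ratio (aphidicolin over untreated) of island length on the x axis and of CPM per kb of island on the y axis. Red points (1553) had more reads and lie to the right around a density ratio of 0, and blue points (1600) had fewer reads and lie to the lower left.

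The domain with the largest rise was chr10:79905001-79982200. Its islands covered 4.6 kb and 6.6 kb in untreated replicates 1 and 3 and 70.6 kb and 76.4 kb in aphidicolin replicates 1 and 3. They held 159 and 197 reads untreated and 2429 and 2261 under aphidicolin, a log2 ratio of 3.70 (edgeR quasi-likelihood adjusted p = 0.000632). Islands took up 5.96% and 8.55% of the domain untreated, in 1 and 2 islands, and 91.5% and 99.0% under aphidicolin, in 8 and 2 islands. At chr5:175065201-175123000 the islands covered 3.6 kb and 7.4 kb untreated and 49.4 kb and 48.0 kb under aphidicolin. Reads there were 113 and 185 untreated and 1645 and 1411 under aphidicolin (log2 ratio 3.32, edgeR adjusted p = 0.00167). The other 3 of the 5 largest rises were chr1:18369801-18393000, chr5:169934001-169959600 and chr3:10877201-10919400, with log2 ratios of 3.44, 3.31 and 3.31.

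The largest fall was at chr6:15108001-15188600. Islands covered 73.0 kb and 76.6 kb of it in untreated replicates 1 and 3 and 4.2 kb and 2.6 kb in aphidicolin replicates 1 and 3. Reads were 2994 and 2644 untreated and 154 and 92 under aphidicolin, a log2 ratio of -4.53 (edgeR adjusted p = 0.00058). The domain at chr1:234681601-234717800, at the start of the run that fell on chromosome 1, had 36.2 kb and 31.6 kb of island untreated and 4.4 kb and 4.8 kb under aphidicolin. Its reads were 1664 and 1193 untreated and 156 and 137 under aphidicolin (log2 ratio -3.27, edgeR adjusted p = 0.000632). In both domains no more than 4.8 kb of island remained under aphidicolin. The other 3 of the 5 largest falls were chr20:37495001-37522600, chr2:191236601-191265800 and chr3:193661201-193701000, with log2 ratios of -3.38, -3.29 and -3.21. All 10 of these domains kept their direction and passed 0.05 in the fit with a replicate block and in each fit without a library.

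The broadest domains stayed largely covered in both treatments. Of 47 shared domains of 200 kb or more, 40 were covered over at least 70% of their length in each list. By reads, 9 rose, 2 fell and 36 did not pass, where 13.3% of all shared domains rose and 13.7% fell. Both aphidicolin libraries had more island length in 27 of them and less in 11, where the shares over all shared domains were 34.2% and 25.2%. Density was far above the list means at chr9:133607201-134098800, with 177 and 175 reads per kb in untreated replicates 1 and 3. It was 279 and 210 there in aphidicolin replicates 1 and 3. The widest island of every list was on chromosome 13 and had nearly the same edges in all 4. It ran from 91318201 to 91999600 in untreated replicate 1, and measured 681.4, 681.6, 681.2 and 678.4 kb in untreated replicates 1 and 3 and aphidicolin replicates 1 and 3. Its density was 88.1, 82.6, 83.3 and 77.0 reads per kb.

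That stretch of chromosome 13 stood apart from the rest in other lists. The 2 macroH2A1 lists from untreated cells and the 2 from aphidicolin cells, and the sh-RFP macroH2A1.2 list, had no island over it. The list from cells with the macroH2A1.2 hairpin covered 99.9% of it. γH2AX lists of the same title set covered 99.8% and 99.9% in untreated replicates 1 and 3, and 0% and 26.3% in aphidicolin replicates 1 and 3. Chromosome 13 also held 5 wide domains present in aphidicolin replicate 3 alone, of 183.4 to 452.0 kb and together 1.62 Mb, between 81121801 and 93339400. Their density was 57.2 to 69.1 reads per kb, above the 33.4 of that list as a whole. A sixth wide domain nearby, chr13:92258401-92475800, was in the other 3 lists and absent from aphidicolin replicate 1. Copy number and input reads were not analysed here, neither at these islands nor at the other broad domains.

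Broad stretches were retained across treatments more completely than short ones. Stretches of 50 kb or more that were covered in both untreated lists numbered 173, and 156 of them (90.2%) were covered over at least 80% in each aphidicolin list. For stretches of 5 to 10 kb, 7880 in number, the share was 59.6% in aphidicolin replicate 1 and 61.0% in aphidicolin replicate 3. Those with no cover at all made up 12.0% and 19.7% at 5 to 10 kb and 0.440% and 2.02% at 20 to 50 kb. In the other direction, 21.0% and 23.0% of the 9616 aphidicolin stretches of 5 to 10 kb had no cover in untreated replicates 1 and 3, and 0.600% and 0.450% of those of 20 to 50 kb. Between replicates the same gradient was found, though islands of single lists were followed there, so the shares are not directly comparable. Of islands of 5 to 10 kb in untreated replicates 1 and 3, 21.4% and 7.66% had no cover in the other untreated list. For aphidicolin replicates 1 and 3 the shares were 16.8% and 14.8%. At 20 to 50 kb they were 0.0492%, 0.195%, 0.576% and 0% in that order. At 50 kb or more, 95.9 to 99.4% of the islands were covered over at least 80% in the replicate.

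Islands seen under 1 treatment alone were short and thin. In untreated replicates 1 and 3, 10.3% and 12.5% of the islands overlapped the other untreated list and neither aphidicolin list. In aphidicolin replicates 1 and 3, 17.4% and 19.6% overlapped the other aphidicolin list and neither untreated list. Their density was 34.9, 32.2, 34.0 and 27.9 reads per kb, in the order untreated replicates 1 and 3 and aphidicolin replicates 1 and 3. Islands that overlapped both lists of the other treatment had 43.1, 41.6, 42.8 and 35.9 reads per kb in that order, and islands found in no other list had 29.9, 29.8, 29.8 and 27.1. Islands of 1 treatment thus lay between the other classes in density, in each of the 4 lists.

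Bases covered in both aphidicolin lists and neither untreated list mostly touched an existing island or lay within 10 kb of one. Of their length, 41.8% touched an island of an untreated list, 30.9% lay within 10 kb of one, 19.8% lay 10 to 50 kb away and 7.51% farther. For bases covered in both untreated lists and neither aphidicolin list, the shares were 48.1%, 26.8%, 16.6% and 8.54% with respect to the aphidicolin lists. The same shares were not computed for all uncovered bases or for bases that differed between replicates. Whether nearness to islands is particular to the treatments was therefore not tested. Both kinds came in short pieces, with a median of 1.8 kb for gained and 1.4 kb for lost stretches. A gained stretch of 69.6 kb at chr1:142891001-142960600 and a lost one of 94.8 kb at chr1:144998601-145093400 lay more than 50 kb from any island of the other treatment.

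Chromosomes did not share the change evenly. Percent covered was higher in both aphidicolin libraries than in both untreated ones on 16 of 23 chromosomes (69.6%) and lower on 1 (4.35%), chromosome 19. Coverage of chromosome 19 was 24.5% and 22.9% in untreated replicates 1 and 3 and 22.3% and 20.9% in aphidicolin replicates 1 and 3. Of its 468 shared domains, 33 rose (7.05%) and 161 fell (34.4%), against 13.3% and 13.7% of all shared domains. By windows, 30 rose and 84 fell there. On chromosome 17, 54 of 622 shared domains rose and 126 fell (20.3%), while its coverage overlapped between the treatments and by windows 62 rose and 52 fell. On the X chromosome no shared domain rose and 19 of 111 fell (17.1%, near the 13.7% of all shared domains), at a coverage of 1.29% and 0.869% untreated and 0.879% and 0.688% under aphidicolin.

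Other chromosomes leaned the opposite way. On chromosome 21, 44 of 170 shared domains rose (25.9%) and 13 fell (7.65%), and coverage was 7.87% and 7.20% untreated against 11.2% and 10.4% under aphidicolin. On chromosome 7, 155 of 761 rose (20.4%) and 83 fell (10.9%), and coverage was 11.9% and 10.2% against 14.3% and 14.2%. By windows, rises outnumbered falls on 20 of the 23 chromosomes, and by shared domains on 12. Among shared domains, falls outnumbered rises on chromosomes 17, 19 and X, and rises outnumbered falls on chromosomes 7 and 21. The order was the same with library-size scaling, DESeq2, equal covered length and each library left out. On chromosome 7, however, rises and falls were nearly equal in number without aphidicolin replicate 1. Without aphidicolin replicate 3 the counts shrank to 13 rises and 49 falls on chromosome 19 and to 7 and 5 on chromosome 21, and without aphidicolin replicate 1 to 15 and 80 and to 13 and 4. Domains of 1 chromosome are not replicates, and the difference between chromosomes was not tested.

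**Figure D5:**
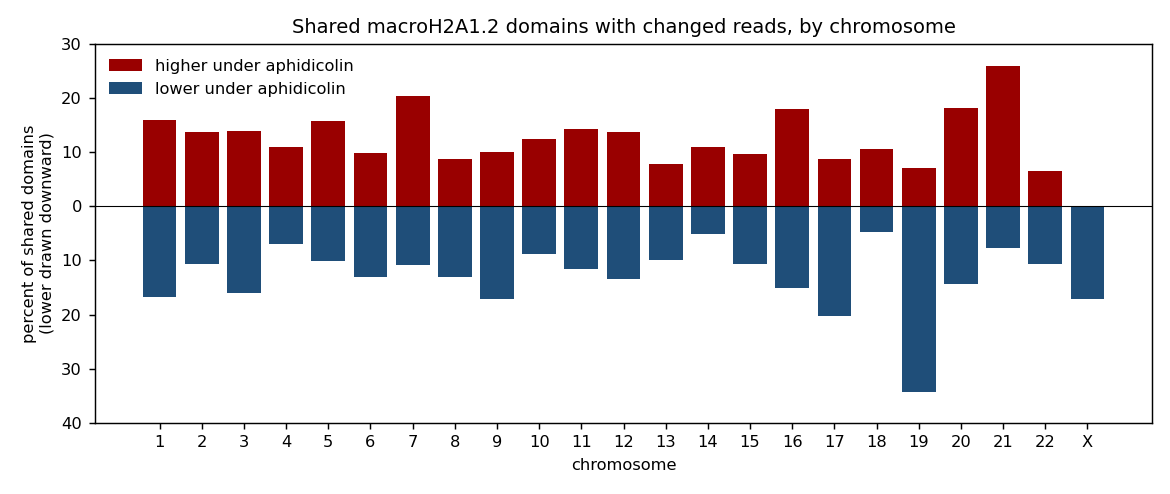
Percent of the shared domains of each chromosome whose reads rose (red, upward) or fell (blue, drawn downward) under aphidicolin by edgeR's quasi-likelihood test at an adjusted p of 0.05. Chromosome 19 has the longest downward bar, 34.4%, and chromosome 21 the longest upward bar, 25.9%.

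Values near chromosome ends are given as a description. In the last 5 Mb of each chromosome, at its highest coordinates, 17.0% of 1003 shared domains rose and 10.8% fell, against 12.9% and 14.0% elsewhere. Window coverage rose in 19.9% and fell in 7.20% of 806 windows there, against 14.9% and 6.70% elsewhere.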

How the data were processed

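Chromatin was digested with micrococcal nuclease and immunoprecipitated, per the labels' protocols. Reads were aligned to hg19 with Bowtie2 2.1.0 and islands were called with SICER 1.1, per the submitters' processing notes, which also name deepTools. The authors deposited 1 island list per library, whose value is the count of reads in each island. Window, gap and false discovery rate are in the names of the deposited lists; no source used here says whether duplicate reads were removed. SICER's background scales with depth, so a deeper library can yield more islands.

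Islands on chromosomes Y and M (203 in the 4 lists) were left out. Library measures were compared by an exact permutation test (6 assignments). Coverage of 100-kb windows was fitted with limma 3.58.1 and reads in shared domains with edgeR 4.0.16 (quasi-likelihood, TMM) in R 4.3.3, both adjusted over all features tested; DESeq2 1.42.0 was an alternative. Fits were tested on simulated data with 200 changed features each. Of these, limma recovered 148 windows changed by 60 percentage points, 96 changed by 40 and 0 changed by 20. It called 4, 0 and 0 unchanged windows. With edgeR, 174 domains changed 4-fold, 48 changed 2-fold and 11 changed 1.5-fold were recovered, beside 16, 1 and 6 unchanged ones. In the simulation smaller changes were thus mostly missed. It changed 200 features at a time and only raised windows, where 2709 windows and 3153 domains passed in the data. Its recovery rates therefore do not carry over to the data, where windows that fell had a median difference of -21.75 percentage points. Domain counts cover reads inside islands only, so reads under the calling threshold are missing. The text names the 5 runs with the most windows per direction, and the 5 shared domains of at least 5 kb with the largest fold per direction among those past the threshold; the broken and merged stretches, the chromosomes and the chromosome 13 domains were named after their values were seen. Samples, measures and regions were chosen with earlier results of these data known. Genes and sequences at these positions are not analysed here.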

Additional observations from a re-analysis of the deposited data

How the results depend on the processing

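Direction was kept under every alternative tried for covered length (log2 ratio 0.13 to 0.37 without a library) and reads per kb (-0.28 to -0.04). With lists trimmed to equal covered length, the ratio reversed to -0.14 for island number, 0.22 for length-weighted width and 0.18 for the share in islands of 20 kb or more. Without a library, ratios spanned 0: -0.016 to 0.46 for island number, -0.17 to 0.30 for median width, -0.21 to 0.13 for length-weighted width, -0.17 to 0.063 for the share in islands of 20 kb or more, -0.67 to 0.37 for splits over merges and -0.0053 to 0.17 for the width of islands matched 1 to 1. Deviations of same-numbered libraries had a correlation of -0.09 over windows and -0.08 over domains. With 1 replicate difference per treatment, this cannot show whether same-numbered libraries belong together, and the labels do not say. With a replicate block, 451 windows rose and 139 fell, and 1802 domains rose and 1623 fell. Windows that rose numbered 854 at equal covered length, and edgeR on island reads had 1681 that fell and 1985 that rose; without a library, 0 to 770 rose and 0 to 482 fell. Domains in at least 2 of 4 lists gave 5892 rises and 3841 falls, and equal covered length 1029 rises; without a library, 443 to 1745 rose and 563 to 1445 fell. A library left alone in its group was assumed to vary like the others. The density scale was added after seeing the data. Reads outside islands and total depth were not available to these fits, so a loss of cover cannot be told apart from a signal that fell just below the calling threshold.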

Other observations

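The windows where macroH2A1.2 coverage rose or fell were looked up in the macroH2A1 lists of the series, which come from another antibody target and have their own untreated and aphidicolin libraries (2 each, numbered 1 and 2). In the 1879 windows where macroH2A1.2 rose, macroH2A1 covered on average 44.0% untreated and 61.0% under aphidicolin, against 26.8% and 34.5% over all tested windows. Its mean was higher under aphidicolin in 95.3% of the windows where macroH2A1.2 rose, against 75.5% of all tested windows. In the 830 windows where macroH2A1.2 fell, macroH2A1 covered 45.5% and 46.6%, and its mean was higher under aphidicolin in 51.1%. At chr7:131300001-132500000 macroH2A1 covered 59.3% and 59.8% untreated and 85.6% and 88.4% under aphidicolin, the largest gain among the named runs that rose. In the other named runs that rose it covered 61.1 to 88.8% untreated and 77.4 to 95.8% under aphidicolin, and was higher under aphidicolin in each. At chr6:15700001-16300000, where macroH2A1.2 was almost emptied, macroH2A1 stayed between 66.0% and 71.4% in its 4 libraries. The difference between the targets was not tested.

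γH2AX, the phosphorylated H2AX that marks DNA damage, was taken from lists of the same title set (2 libraries per treatment). In untreated libraries it covered at most 2.86% on average in any class of window. The aphidicolin libraries differed from each other. Replicate 1 covered 15.2% of the windows where macroH2A1.2 rose, 20.3% of those where it fell and 14.9% of all tested windows. Replicate 3 covered 6.57%, 4.91% and 5.03% in that order, so the order of the classes was not the same in the 2 libraries. Both aphidicolin libraries lay above both untreated ones in 35.8%, 37.0% and 30.5% of these windows. These values are descriptions, and no test of the difference between the classes was made.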
